A study of Mus musculus with 47 samples.

Results

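The contrast described here set late light against early light in the young retina: 3 libraries taken 10 h after lights on (zeitgeber time 10, ZT10) against 4 libraries taken 2 h after lights on (ZT2). A gene entered with at least 0.5 RPKM (reads per kilobase of transcript and per M (mega) mapped reads) in at least 3 of these 7 libraries, which left 14936 of the 57180 genes in the table. The mice were C57BL/6, an inbred laboratory strain, 6 weeks old and kept under 12 h of light and 12 h of darkness, and no treatment or altered allele is named for any group. Retinas of 20-month-old mice of the same strain, 4 taken at ZT2 and 4 at ZT10, are called aged below and served as mice outside the contrast. The protocol names 4 mice per age and time, and both ages had 4 libraries at ZT2 and 4 at ZT10, made of polyadenylated RNA from right retinas dissected under dim red light, so replicates were taken as separate animals. A whole retina mixes rods, cones, interneurons, ganglion cells, glia and vessels, and fewer cells of a type and less RNA per cell cannot be told apart in its values.

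Circadian time in mammalian cells is kept by a loop in which the activators CLOCK and BMAL1, the product of Arntl, drive the Per and Cry genes through E-box elements, and the PER and CRY proteins then repress the activators. Output factors such as DBP, TEF and HLF pass the rhythm to other genes through D-box elements. The retina holds such a clock of its own and also responds to light directly, with rods and cones adjusting their signaling proteins, dopamine D4 receptors and cyclic AMP over the day. Photoreceptors renew their outer segments daily and make large amounts of membrane protein, whose folding relies on chaperones of the endoplasmic reticulum (ER).

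The library young ZT10 replicate 4 was left out of the contrast because it stands apart. Over the 14936 genes its log values correlated with those of the 7 libraries at r = 0.854 to 0.874, against 0.976 to 0.990 among the 7. It had the largest implied total, 55.5 M reads against 33.0 to 44.4 M, yet 12689 genes at 0.5 RPKM or more, where the 7 libraries had 14287 to 15033. Summed RPKM of 12 ganglion cell markers was 68.2 in it and 374 to 620.0 in the 7, that of 13 Müller glia markers 276 against 1033 to 1272, and that of 12 rod markers 28934 against 21594 to 25609. All 12 rod, 9 cone, 13 bipolar, 11 amacrine, 12 ganglion cell and 13 Müller markers passed the filter on low values. Between the groups, the number of genes at 0.5 RPKM or more was 14287 to 14538 at ZT2 and 14937 to 15033 at ZT10, and the median log2 difference over all tested genes was 0.10.

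Promoters of the clock and chaperone genes that changed are shown first, since the known control elements of these gene groups can be read in the sequence. The sequences are the 250 bases before the start site in RefSeq promoter windows (build GRCm38.p6, an earlier build than the GRCm39 named for the deposited values), written 5′ to 3′ along the gene. The E-box searched was CACGTG and the ER stress element CCAAT followed 9 bases later by CCACG, each on both strands. Capitals mark only E-box matches in the clock windows and only ER stress element matches in the chaperone windows. Of 32851 such windows, 6.02% held the E-box and 0.113% the ER stress element. Among the clock transcription factors tested, 17 of 20 had a window, and 5 of them, Per1, Cry1, Ciart, Tef and Bhlhe41, held the E-box. Of the 6 with a window whose transcripts rose in the contrast, 3 held it: Ciart, Per1 and Tef. Cry1 and Bhlhe41 did not pass the test. Ciart (chr3:95882229-95882478, minus strand) held 3 matches, Per1 1 (chr11:69098699-69098948, plus strand) and Tef 1 in the window shown (chr15:81811164-81811413, plus strand).
Ciart: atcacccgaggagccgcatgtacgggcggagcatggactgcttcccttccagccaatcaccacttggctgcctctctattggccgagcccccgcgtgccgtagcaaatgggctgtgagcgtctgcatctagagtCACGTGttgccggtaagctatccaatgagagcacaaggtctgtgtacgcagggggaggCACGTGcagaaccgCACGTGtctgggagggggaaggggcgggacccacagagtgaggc
Per1: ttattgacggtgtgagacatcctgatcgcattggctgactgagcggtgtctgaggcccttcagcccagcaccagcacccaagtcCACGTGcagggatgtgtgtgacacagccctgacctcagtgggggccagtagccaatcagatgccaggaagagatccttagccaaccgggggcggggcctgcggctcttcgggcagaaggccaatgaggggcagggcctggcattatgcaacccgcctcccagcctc
Tef: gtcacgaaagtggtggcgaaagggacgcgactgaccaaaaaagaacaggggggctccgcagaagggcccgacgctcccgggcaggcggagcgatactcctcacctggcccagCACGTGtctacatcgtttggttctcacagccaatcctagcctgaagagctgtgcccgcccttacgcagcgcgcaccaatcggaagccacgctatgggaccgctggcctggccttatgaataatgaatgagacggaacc
Among the ER chaperones and their regulators tested, 17 of 19 had a window, and 8 of them held the ER stress element. Of the 9 with a window whose transcripts fell in the contrast, 5 held it: Hspa5, Calr, Hsp90b1, Pdia6 and Canx. The remaining 3 with a match, Dnajc3, Creld2 and Syvn1, did not pass the test. The element lay at bases -65 to -47 from the start site in Hspa5 (chr2:34771840-34772089, plus strand), at -162 to -144 in Calr (chr8:84846932-84847181, minus strand, read on the opposite strand), and at 2 places in Hsp90b1 (chr10:86705445-86705694, minus strand), 1 on each strand. The Calr window also holds the E-box letters, left in lower case because only the ER stress element was marked there. A match is a description of the letters only.
Hspa5: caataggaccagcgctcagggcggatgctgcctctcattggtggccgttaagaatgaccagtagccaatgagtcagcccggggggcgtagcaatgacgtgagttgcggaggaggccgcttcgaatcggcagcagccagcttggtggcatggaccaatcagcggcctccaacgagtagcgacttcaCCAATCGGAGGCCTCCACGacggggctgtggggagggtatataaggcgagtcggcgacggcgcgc
Calr: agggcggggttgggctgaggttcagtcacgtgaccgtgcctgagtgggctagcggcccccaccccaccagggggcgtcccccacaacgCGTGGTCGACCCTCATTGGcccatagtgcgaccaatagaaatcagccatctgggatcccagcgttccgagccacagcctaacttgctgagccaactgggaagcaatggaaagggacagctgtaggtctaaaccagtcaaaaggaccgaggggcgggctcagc
Hsp90b1: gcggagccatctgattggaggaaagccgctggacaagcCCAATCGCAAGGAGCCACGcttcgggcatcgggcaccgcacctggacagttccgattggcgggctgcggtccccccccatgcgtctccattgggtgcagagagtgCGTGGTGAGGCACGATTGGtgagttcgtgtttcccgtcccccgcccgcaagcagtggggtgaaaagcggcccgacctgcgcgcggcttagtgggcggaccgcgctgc
Pdia6: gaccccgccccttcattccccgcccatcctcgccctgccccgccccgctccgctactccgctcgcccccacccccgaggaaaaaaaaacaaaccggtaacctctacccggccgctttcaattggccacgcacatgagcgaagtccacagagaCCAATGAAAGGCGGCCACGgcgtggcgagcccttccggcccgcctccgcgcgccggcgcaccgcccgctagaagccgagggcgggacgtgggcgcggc

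In the values as deposited, more transcripts were higher than lower in late light. With an adjusted p below 0.05 and more than a 1.5-fold difference (limma on log2(RPKM + 0.5), Benjamini-Hochberg adjustment over all tested genes), 199 of 14936 genes were higher at ZT10 (1.33%) and 44 lower (0.295%). At an adjusted p under 0.05 whatever the fold, 1323 rose (8.86%) and 418 fell (2.8%), and it is this call that the gene groups below are counted by. By the same call 535 rose and 1027 fell after median-ratio scaling, and 406 rose and 436 fell after quantile normalization. Over all genes 423 rose and 177 fell without ZT10 replicate 1, 212 and 112 without replicate 2, and 284 and 138 without replicate 3. Without ZT2 replicates 1 to 4 in turn, 870, 553, 412 and 2356 rose and 311, 217, 186 and 639 fell. With all young libraries 758 rose and 231 fell, and with the replicate number as a block 1532 and 415. By voom on recovered reads 2169 rose and 494 fell, and without the filter on low values 540 and 201 of 30431 genes. Examples were Arr3, cone arrestin, with 2.2 times its early level, Rbm3, a cold-inducible RNA-binding protein, which were higher, and Irf7, an interferon regulatory factor, Calr, an ER chaperone, and Rcvrn, the photoreceptor calcium sensor recoverin, which were lower. Differences on this log scale understate the change of low genes. Groups without overlap were common with so few libraries. Of the 14936 genes, 3316 had every ZT10 library above every ZT2 library and 997 had every one below. Of the 243 calls 240 had groups apart, so non-overlap does not set a named gene apart from other calls. Higher genes made up 81.9% of the calls, against 56.8% after median-ratio scaling (109 higher, 83 lower) and 50.4% after quantile normalization (64 and 63), so the excess of higher genes depended on the scaling. The 243 calls became 160, 101 or 126 without ZT10 replicate 1, 2 or 3, 149 without ZT2 replicate 3 and 395 without ZT2 replicate 4. With ZT10 replicate 4 in the fit 4 genes were called, all higher, among them Arr3, Rbm3 and Kif4, and of the members of all gene groups below only Arr3 and Rbm3 passed at any fold.

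**Figure D1:**
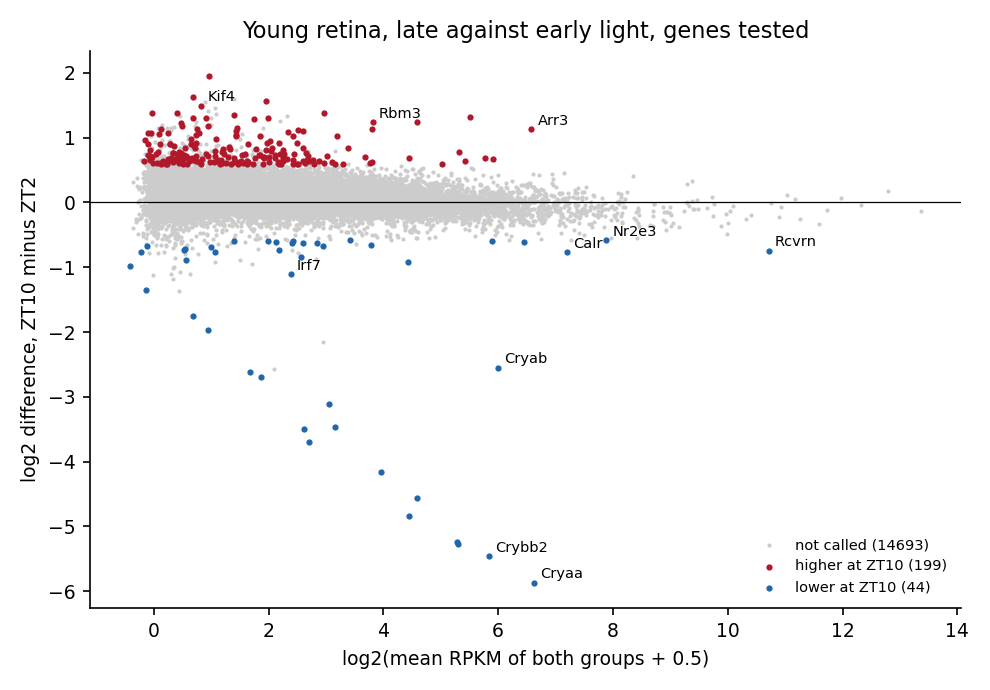
Log2 difference (ZT10 minus ZT2) of each tested gene against log2 of its mean RPKM plus 0.5, in the young retina, with 199 genes called higher in red, 44 called lower in blue and the others in grey. The lower calls with differences below -2 are lens crystallins and other lens genes, while Rcvrn and Calr stand out among abundant transcripts.

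Within the clock, genes of the repressor arm and output factors rose in late light, and no activator passed. Of 6 PER and CRY repressors with Ciart, 4 rose and none fell, with a list median of 0.37 beside 0.10 over all genes. Ciart, also named Chrono, a repressor of the CLOCK and BMAL1 pair, was at 2.36, 2.5, 2.59 and 3.16 RPKM in the 4 ZT2 libraries and 5.89, 5.28 and 5.15 RPKM at ZT10. Each of these ZT10 libraries lay above every ZT2 library, and the difference was 0.92 ± 0.10 (log2 ± SE, adjusted p = 0.00355, limma). The ZT10 replicate 4 left out of the contrast held 0.94 RPKM, below every ZT2 library. With it the difference was 0.41 (adjusted p = 0.897, limma). The window printed above for Ciart is the one with 3 E-boxes.

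Per1, a light-responsive PER gene in the brain's clock, was at 12.5, 12.1, 11.7 and 11.5 RPKM at ZT2 and 14.2, 14.7 and 15.3 RPKM at ZT10. The groups did not overlap, but the rise was small, 0.29 ± 0.05 (adjusted p = 0.0139, limma). Per2 was at 2.52, 2.25, 1.89 and 1.82 RPKM against 3.55, 3.33 and 3.02 RPKM, a difference of 0.54 ± 0.11 (adjusted p = 0.0211, limma), and Per3 at 5.63, 5.74, 4.57 and 4.91 RPKM against 6.57, 7.63 and 7.69 RPKM, a difference of 0.45 ± 0.09 (adjusted p = 0.0219, limma). In both genes too the lowest ZT10 library in the contrast lay above the highest ZT2 library. In ZT10 replicate 4 Per1, Per2 and Per3 were at 9.69, 1.5 and 4.78 RPKM. The cryptochromes, which bind PER proteins, did not pass: Cry1 differed by 0.08 ± 0.06 (adjusted p = 0.427, limma) and Cry2 by 0.17 ± 0.06 (adjusted p = 0.103, limma).

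Of 6 output factors, 3 rose and none fell, with a median of 0.31. Dbp, the D-box activator, was at 24.1, 25.8, 22.1 and 23.5 RPKM at ZT2 and 31.6, 35.5 and 32.8 RPKM at ZT10, a rise of 0.47 ± 0.06 (adjusted p = 0.00638, limma). Tef, a related activator whose window above holds an E-box, was at 27.1, 29.1, 28.3 and 28.5 RPKM and 35.1, 35.4 and 33.1 RPKM, a rise of 0.28 ± 0.05 (adjusted p = 0.0104, limma). Neither gene's groups overlapped. Hlf, the last of the 3, was at 18.1, 20.8, 19.6 and 22.8 RPKM and 26.5, 24 and 26 RPKM (0.33 ± 0.08, adjusted p = 0.0338, limma). The D-box repressor Nfil3 differed by -0.08 ± 0.09, and the repressors Bhlhe40 and Bhlhe41 by 0.41 ± 0.14 and 0.21 ± 0.07, with adjusted p of 0.562, 0.0861 and 0.0689 (limma).

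The 3 activators tested differed by 0.00 ± 0.07 for Arntl, 0.22 ± 0.07 for Clock and -0.05 ± 0.16 for Npas2, and none passed (adjusted p = 0.974, 0.0623 and 0.856, limma). Arntl was at 11.9, 12.8, 11.3 and 11.1 RPKM at ZT2 and 10.9, 12.3 and 12.2 RPKM at ZT10, so its groups overlapped. None of the 5 nuclear receptors that act on Arntl passed either. Nr1d1 and Nr1d2, which repress it, differed by 0.24 ± 0.10 and 0.24 ± 0.07, and Rora and Rorb, of the family that activates it, by 0.08 ± 0.05 and -0.19 ± 0.06 (adjusted p = 0.129, 0.066, 0.332 and 0.0844, limma). None of 10 tested kinases and ubiquitin ligase genes of the clock passed, with a median of 0.06. By voom 1 gene rose in each of these 3 groups and 1 nuclear receptor fell, and with median-ratio scaling 1 nuclear receptor and 1 kinase or ligase gene fell. Also, 1 nuclear receptor rose without ZT2 replicate 1 or with all young libraries. The count of 4 PER and CRY genes was 3 after median-ratio scaling, 2 after quantile normalization or without the filter on low values, 1 without ZT10 replicate 2 or 3 and 2 without ZT2 replicate 3, and that of 3 output factors was 1 without ZT10 replicate 2 and 5 by voom (limma on reads recovered from the RPKM values).

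**Figure D2:**
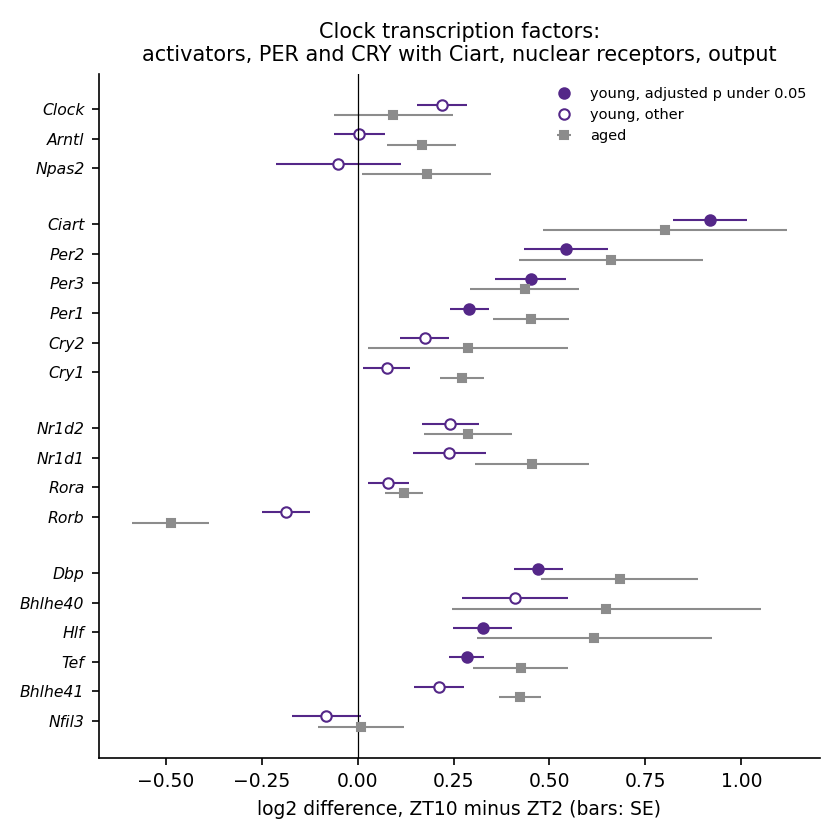
Log2 difference (ZT10 minus ZT2) with its SE for 19 clock transcription factors, in young retina (circles, filled where the adjusted p is under 0.05) and aged retina (grey squares). The 7 filled circles are Ciart, Per2, Per3, Per1, Dbp, Hlf and Tef, and no activator or nuclear receptor is filled.

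Cone arrestin gave the smallest adjusted p of the named genes. Arr3 (ENSMUSG00000060890), which quenches activated cone opsins, was at 60.8, 58.3, 62.6 and 55.8 RPKM at ZT2 and 125, 135 and 132 RPKM at ZT10, with 118 RPKM in ZT10 replicate 4. All ZT10 libraries, that one included, were above every ZT2 library, and the difference was 1.13 ± 0.05 (adjusted p = 0.000129, limma) and 1.09 with replicate 4 (adjusted p = 0.0167, limma). Of 11 cone phototransduction genes it was the only one that rose, and Gngt2, the gamma subunit of cone transducin, fell by 0.45 ± 0.06 (adjusted p = 0.00638, limma). The cone opsins Opn1sw and Opn1mw differed by -0.20 ± 0.08 and 0.08 ± 0.06 (adjusted p = 0.142 and 0.368, limma). In this list 2 rose without ZT2 replicate 4, by voom, with a replicate block or with the stricter filter, and 2 fell without ZT2 replicate 4 or ZT10 replicate 3, by voom or under either other scaling.

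Kif4, a chromosome-associated kinesin of dividing cells, was at 0.465, 0.421, 0.376 and 0.413 RPKM at ZT2 and 2.28, 2.5 and 1.57 RPKM at ZT10, a rise of 1.49 ± 0.14 (adjusted p = 0.00224, limma). Its groups stood apart, as the rule for naming the largest rises required, at the low levels given. All 4 ZT2 libraries were below 0.5 RPKM, so Kif4 passed the filter on low values only through the ZT10 libraries. In the GENCODE annotation of the earlier build Kif4 lies downstream of Arr3 on the same strand, with Pdzd11 between them on the other strand, and over the 47 libraries the log values of Kif4 and Arr3 had r = 0.75, libraries sharing times and tissue. Whether reads of one gene were counted for the other was not tested. Pdzd11 differed by -0.20 ± 0.06 (adjusted p = 0.076, limma).

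Part of the rod activation arm fell in late light. Of 10 such genes 4 fell and none rose, with a median of -0.19: Pde6a, a catalytic subunit of the rod phosphodiesterase (-0.36 ± 0.07), Gnat1, the alpha subunit of rod transducin (-0.33 ± 0.07), Pde6g, the inhibitory phosphodiesterase subunit (-0.26 ± 0.06), and Gnb1, a transducin beta subunit (-0.23 ± 0.06), with adjusted p from 0.0193 to 0.0396 (limma). The count was 1 with all young libraries in the fit, 2 with a replicate block, and 0 after quantile normalization, without the filter on low values, and without any 1 of ZT10 replicates 1 to 3 or ZT2 replicates 2 and 3.

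Genes that shut the light response off moved in different directions. Rcvrn (ENSMUSG00000020907), recoverin, a calcium-binding regulator of the light response, was at 1961, 2174, 2169 and 2118 RPKM at ZT2 and 1293, 1166 and 1314 RPKM at ZT10. The ZT10 values were all lower, and the difference was -0.74 ± 0.07 (adjusted p = 0.00175, limma), but ZT10 replicate 4 held 5009 RPKM and with it the difference was -0.24 (adjusted p = 0.902, limma). Sag, rod arrestin, was at 618, 551, 620.2 and 580.3 RPKM and 768, 745 and 721 RPKM, a rise of 0.33 ± 0.06 (adjusted p = 0.0137, limma). Pdc, phosducin, which binds transducin beta and gamma subunits, fell by 0.18 ± 0.05 (adjusted p = 0.0468, limma). These 3 were the only calls among 14 shut-off and recovery genes. The 2 falls were 1 without any 1 of the ZT10 libraries or ZT2 replicate 2 or 3, after quantile normalization, without the filter on low values or with all young libraries, and 4 without ZT2 replicate 4. The 1 rise was 0 without ZT10 replicate 1 or 2, after median-ratio scaling, without the filter or with all young libraries, and 2 without ZT2 replicate 1.

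**Figure D3:**
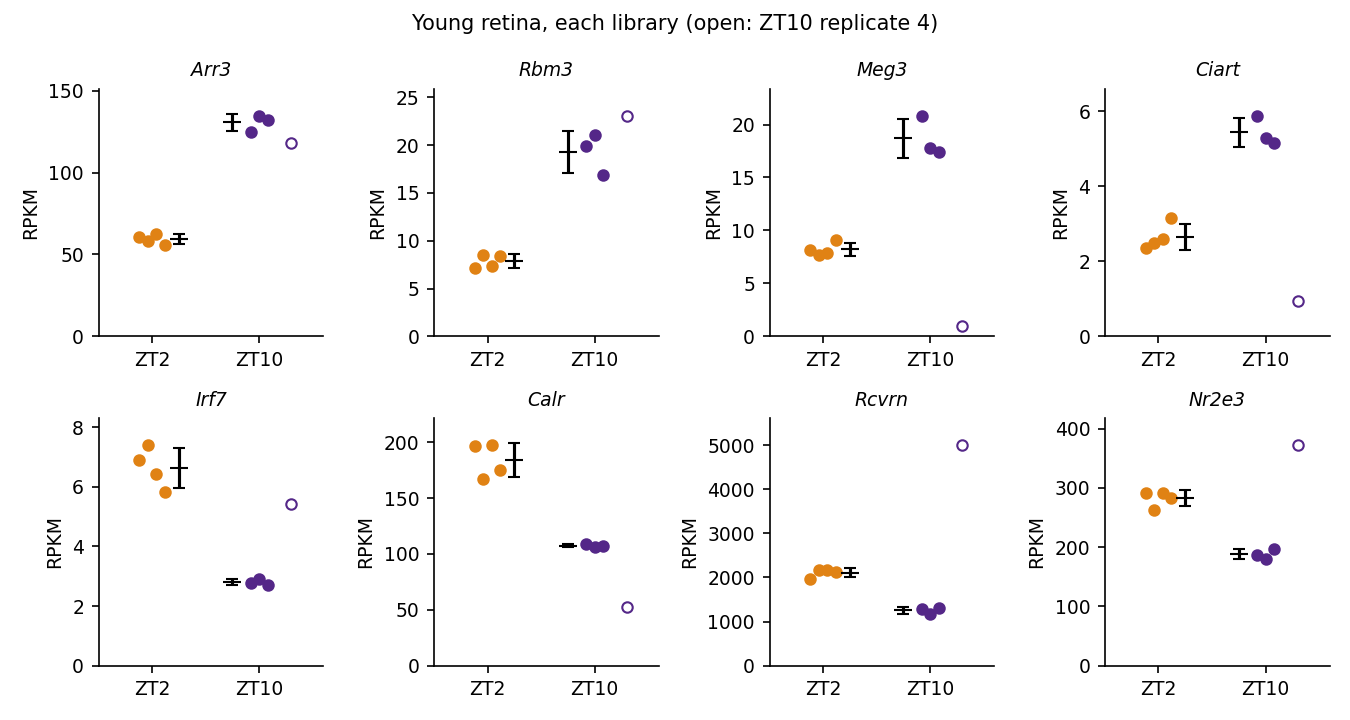
RPKM of 8 genes in each young library at ZT2 (orange, n = 4) and ZT10 (purple, n = 3), with mean and SD as black bars and ZT10 replicate 4, left out of means and tests, as an open circle. Filled points of the groups do not overlap in any panel. The open circle lies close to the other ZT10 libraries for Arr3 and Rbm3 but away from them for Meg3, Ciart, Irf7, Calr, Rcvrn and Nr2e3.

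Among 14 photoreceptor transcription factors 4 fell and 3 rose. Nr2e3, the nuclear receptor that represses cone genes in rods, was at 291, 263, 292 and 283 RPKM at ZT2 and 188, 179.7 and 197 RPKM at ZT10, a difference of -0.59 ± 0.05 (adjusted p = 0.00192, limma), with no overlap. Nrl, which sets rod fate, fell by 0.31 ± 0.05, Esrrb, an orphan receptor of rods, by 0.35 ± 0.07 and Crx, the homeobox factor of rods and cones, by 0.21 ± 0.04 (adjusted p = 0.00813, 0.0219 and 0.0245, limma). Those that rose were Samd7 (0.37 ± 0.05) and Samd11 (0.17 ± 0.04), partners in a repressive complex of rods, and Thrb (0.29 ± 0.06), the thyroid hormone receptor that specifies medium-wave cones, with adjusted p of 0.00668, 0.0467 and 0.0231 (limma). Summed RPKM of the 12 rod markers was 24828, 25134, 25609 and 23929 at ZT2 and 22217, 21594 and 23024 at ZT10, lower in all 3 ZT10 libraries. The part of that level in the falls of rod genes was not tested. The 4 falls were 2 without ZT10 replicate 2 or 3 or ZT2 replicate 2 or 3, and 1 after quantile normalization, without the filter on low values or with all young libraries, and the 3 rises were 1 without ZT10 replicate 2 or 3, after median-ratio scaling or with all young libraries.

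Synaptic and signaling genes of photoreceptors also split. Of 19 ribbon synapse genes 5 rose and 3 fell, with a median of 0.02. The rises were scaffolds of the active zone, Bsn (0.47 ± 0.07), Rims2 (0.45 ± 0.06), Rimbp2 (0.45 ± 0.11) and Pclo (0.40 ± 0.05), and Cacna1f (0.36 ± 0.04), the calcium channel of rod terminals. The falls were Stx3 (-0.49 ± 0.04), the syntaxin of ribbon synapses, Cplx4 (-0.27 ± 0.06), a complexin, and Cacna2d4 (-0.27 ± 0.07), a calcium channel subunit, and adjusted p for the 8 ran from 0.00149 to 0.0424 (limma). Stx3 was at 207, 214, 218 and 208 RPKM at ZT2 and 148, 150.3 and 153 RPKM at ZT10, without overlap. The count of falls was 1 after quantile normalization, without the filter on low values, with all young libraries in the fit and without any 1 of the ZT10 libraries or ZT2 replicate 2 or 3, and 5 after median-ratio scaling or without ZT2 replicate 4, and that of rises was 2 with all young libraries.

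Of 12 dopamine, cyclic AMP and melatonin genes, 1 rose and 1 fell. Drd4, the dopamine receptor of photoreceptors, was at 127, 125, 118 and 109 RPKM at ZT2 and 91.6, 82.7 and 84.6 RPKM at ZT10, a difference of -0.47 ± 0.06 (adjusted p = 0.00654, limma). Adcy1, the calcium-stimulated adenylyl cyclase, went the other way, from 39.8, 36.8, 38 and 34.1 RPKM to 52.7, 53.6 and 54.9 RPKM, a rise of 0.53 ± 0.06 (adjusted p = 0.00355, limma). In both genes the groups did not overlap. Th, the rate-limiting enzyme of dopamine synthesis, differed by 0.20 ± 0.15 from 0.696 ± 0.14 RPKM (SD, n = 4) (adjusted p = 0.383, limma). After quantile normalization 2 genes of the list fell.

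Most tested chaperones of the ER fell in late light. Of 19 genes, 11 fell and none rose, beside 2.8% of all tested genes that fell, and the list median was -0.27. Calr (ENSMUSG00000003814), calreticulin, which folds glycoproteins and binds calcium in the ER, was at 196, 167, 198 and 175 RPKM at ZT2 and 109, 106 and 107 RPKM at ZT10. The ZT10 values were tightly grouped and all lower, a difference of -0.77 ± 0.07 (adjusted p = 0.00149, limma). Pdia3, its disulfide isomerase partner, was at 79.5, 64, 73.4 and 67.6 RPKM and 44.5, 47.5 and 48.2 RPKM (-0.60 ± 0.07, adjusted p = 0.00506, limma), and Xbp1, a transcription factor of the unfolded protein response, at 25, 23, 22.9 and 24.1 RPKM and 15.7, 15.2 and 16.9 RPKM (-0.56 ± 0.06, adjusted p = 0.00281, limma). Neither gene's groups overlapped.

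Hspa5, Hsp90b1 and Pdia6, whose promoters with the ER stress element are printed above, fell too. Hspa5, the Hsp70 of the ER, went from 87.3 ± 10.7 to 58.1 ± 1.96 RPKM (mean ± SD, n = 4 and 3), Hsp90b1, its Hsp90, from 87.7 ± 10.9 to 60.5 ± 1.21 RPKM and Pdia6, another disulfide isomerase, from 32.5 ± 3.63 to 22 ± 0.849 RPKM. Their differences were -0.58 ± 0.09, -0.52 ± 0.09 and -0.55 ± 0.08 (adjusted p = 0.00854, 0.0122 and 0.00877, limma). Smaller falls were those of Canx, the lectin chaperone calnexin (-0.26 ± 0.07), Hyou1 (-0.26 ± 0.07) and Dnajb11 (-0.27 ± 0.07), and Manf and Sdf2l1 fell by 0.47 and 0.57 (adjusted p from 0.00561 to 0.0448, limma). Genes of ER-associated degradation in the list did not pass: Herpud1 differed by 0.07 ± 0.05, Sel1l by 0.02 ± 0.06, Syvn1 by -0.09 ± 0.06 and Edem1 by 0.06 ± 0.10. The count of 11 was 7 without ZT10 replicate 3, ZT2 replicate 3 or the filter on low values, 6 without ZT10 replicate 2, and it was 12 with median-ratio scaling and 9 with quantile normalization.

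Cytosolic chaperones of the heat shock response fell in part. Of 21 genes 7 fell and none rose, with a median of -0.18. Hspa8, the constitutive Hsp70, was at 288, 278, 309.7 and 319 RPKM at ZT2 and 208, 207 and 194 RPKM at ZT10 (-0.55 ± 0.06, adjusted p = 0.00355, limma). Hspa1b, an inducible Hsp70 with a near-identical copy in Hspa1a, was at 22.4, 22.4, 21.8 and 19.5 RPKM and 15.4, 14.8 and 14.9 RPKM (-0.50 ± 0.06), and reads of the pair may be split between them. Hsp90aa1, the inducible Hsp90, and Stip1, the cochaperone that joins Hsp70 and Hsp90, fell by 0.38 ± 0.06 and 0.28 ± 0.05 (adjusted p = 0.00447, 0.00818 and 0.0137 for the last 3, limma). The other falls were Fkbp4, Hsph1 and Hspd1, from -0.26 to -0.18. The count was 12 after median-ratio scaling and 3 without ZT10 replicate 2 or 3.

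**Figure D4:**
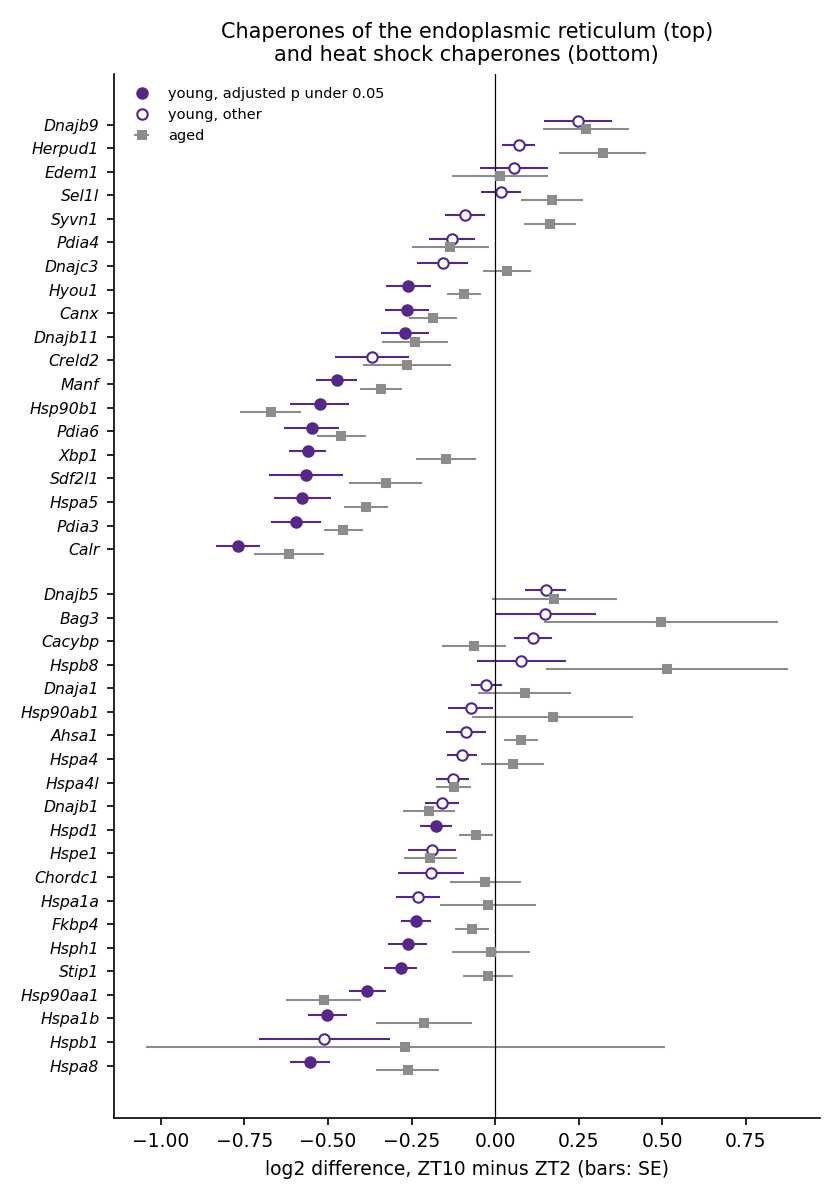
Log2 difference (ZT10 minus ZT2) with its SE for 19 ER chaperone genes and 21 heat shock chaperone genes in young retina (circles, filled where the adjusted p is under 0.05) and aged retina (grey squares). All 18 filled circles lie below 0, and Calr has the lowest value.

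Of the cold-inducible pair Rbm3 and Cirbp, the first rose. Rbm3 (ENSMUSG00000031167), an RNA-binding protein whose transcript is known to rise when cells cool, was at 7.12, 8.53, 7.37 and 8.44 RPKM at ZT2 and 19.9, 21.1 and 16.9 RPKM at ZT10, with 23.1 RPKM in ZT10 replicate 4. All 4 ZT10 libraries lay above every ZT2 library, and the difference was 1.24 ± 0.09 (adjusted p = 0.00121, limma) and 1.31 with replicate 4 (adjusted p = 0.0197, limma). Cirbp, the related cold-inducible gene, was at 105, 95.3, 91.3 and 96.1 RPKM and 116, 109 and 103 RPKM, overlapped between groups and did not pass (0.17 ± 0.06, adjusted p = 0.107, limma).

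Glycolytic genes were lower where they changed: 5 of 22 fell and none rose, with a median of -0.16. Aldoa, an aldolase, was at 1257, 1109, 1139 and 1228 RPKM at ZT2 and 874, 829 and 826 RPKM at ZT10 (-0.49 ± 0.06, adjusted p = 0.0054, limma). Pgam1, Pgk1, Pfkl and Pkm, enzymes of other steps of the pathway, fell by 0.37, 0.37, 0.34 and 0.31 (adjusted p from 0.00499 to 0.0185, limma). The count was 12 after median-ratio scaling, 10 by voom, 2 after quantile normalization and 3 without the filter on low values or without ZT10 replicate 2 or 3.

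Irf7 (ENSMUSG00000025498), a factor that amplifies interferon production, was at 6.88, 7.41, 6.43 and 5.83 RPKM at ZT2 and 2.77, 2.92 and 2.72 RPKM at ZT10, a difference of -1.11 ± 0.08 (adjusted p = 0.00121, limma). The ZT10 values lay close together and every one was lower than every ZT2 value. None of the other 10 tested interferon response genes passed, and the list median was 0.05. Stat2 differed by 0.22 ± 0.07 and Isg15 by 0.13 ± 0.20. The count of falls was 2 with a replicate block, and 1 gene rose by voom. Summed RPKM of 12 microglia markers was 26.1, 34.3, 33.6 and 30.8 at ZT2 and 33.4, 31 and 29.1 at ZT10, overlapping ranges.

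Glucocorticoid-responsive genes moved in both directions: 3 of 11 rose and 1 fell, with a median of 0.18. The metallothioneins Mt1 and Mt2, which bind zinc, rose by 0.48 ± 0.09 and 0.75 ± 0.20, and Klf9, a Krüppel-like factor, by 0.31 ± 0.06, while Sgk1, a kinase of ion transport, fell by 0.26 ± 0.07 (adjusted p = 0.0183, 0.0434, 0.0193 and 0.0378, limma). The count of rises was 0 without ZT10 replicate 2 or ZT2 replicate 3, and 1 without ZT10 replicate 1 or 3, after median-ratio scaling, without the filter on low values or with all young libraries. None of 16 immediate early genes passed, with a median of 0.02. Fos differed by 0.10 ± 0.18, Egr1 by 0.49 ± 0.44 and Npas4 by 0.13 ± 0.22. By voom none passed either, while 2 rose with a replicate block and 2 fell after median-ratio scaling.

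Long non-coding classes had a larger share of higher calls than protein-coding genes. Of 1181 tested genes in long non-coding classes, 58 were called higher (4.91%) and 2 lower, against 92 (0.748%) and 30 of 12298 protein-coding genes, and the class medians were 0.18 and 0.09. In aged retinas the order of the medians was reversed, 0.11 for the long non-coding classes and 0.14 for protein-coding genes. Meg3, an imprinted long non-coding RNA of neurons, was at 8.17, 7.73, 7.83 and 9.11 RPKM at ZT2 and 20.9, 17.8 and 17.5 RPKM at ZT10 (1.14 ± 0.08, adjusted p = 0.00113, limma). Snhg11, a small nucleolar RNA host gene that the GENCODE annotation lists as protein-coding and that is counted there, was at 12.7, 11.7, 12.8 and 18.4 RPKM and 39, 30.6 and 29.9 RPKM (1.24 ± 0.15, adjusted p = 0.00506, limma). Miat, a long non-coding RNA, was at 1.18, 0.993, 1.17 and 1.84 RPKM and 3.64, 2.77 and 2.93 RPKM (1.02 ± 0.16, adjusted p = 0.00954, limma). The groups of all 3 stood apart, which the rule for naming the largest rises required, yet ZT10 replicate 4 held 1, 2.21 and 0.038 RPKM, below all of the 7. The counting strand is not given in the sources used here, so reads of a non-coding gene and of an overlapping gene on the other strand cannot be told apart.

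Meg3 is known to be abundant in inner retinal neurons, and of these the amacrine markers were also higher in part. Summed RPKM of 11 amacrine markers was 363, 332, 378 and 508 at ZT2 and 497, 442 and 387 at ZT10, and that of 12 ganglion cell markers 411, 374, 443 and 620.0 and 603, 500.2 and 449, with ZT2 replicate 4 the highest of its group in both. Of 11 amacrine markers 3 rose and none fell, with a median of 0.31. Among them were Slc6a9, a glycine transporter (0.40 ± 0.06), and Tfap2b, a transcription factor (0.30 ± 0.06), with adjusted p of 0.0101 and 0.02 (limma). None of 12 ganglion cell markers passed (median 0.18), but 4 rose without ZT2 replicate 4 and 5 with a replicate block. Of 13 bipolar markers 0 rose and 1 fell (median 0.03), and of 3 horizontal cell markers 0 rose and 1 fell (median -0.17). Both counts of falls were 0 without any 1 of the ZT10 libraries. The part of inner retinal cells in the non-coding rises was not tested. The count of amacrine rises was 8 without ZT2 replicate 4, 7 with a replicate block, 6 by voom, 1 after median-ratio scaling or without any 1 of the ZT10 libraries or ZT2 replicate 3, and 0 with all young libraries.

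Of the 14 largest rises with a gene name and at least 2 RPKM, others were Col6a1, a collagen chain of vessels and stroma (1.31 ± 0.19), Pcdh15, a protocadherin of photoreceptor and hair cell links (1.03 ± 0.09), and Trank1 (0.95 ± 0.13), with adjusted p of 0.00818, 0.00149 and 0.00671 (limma). Pcdh15 was at 5.98, 5.46, 5.8 and 4.91 RPKM at ZT2 and 10.5, 12.6 and 12.4 RPKM at ZT10. Groups without overlap were a condition for all 14. Among the 14 were also Mir5125 (1.31 ± 0.21), Mir5119 (1.95 ± 0.40), Mir7-1 (1.09 ± 0.23) and Snora31 (1.15 ± 0.20), with adjusted p of 0.0104, 0.0215, 0.0226 and 0.0135 (limma). Mir5119 was at 0.79, 0, 0 and 0.487 RPKM at ZT2 and 2.13, 4.1 and 1.52 RPKM at ZT10, and passed the filter only through the ZT10 libraries. With all young libraries Mir5119 and Snora31 did not pass, and by voom Mir7-1 and Snora31 did not. The Mir and Snora symbols stand for reads of polyadenylated RNA over small RNA loci, not for mature small RNAs.

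The 14 largest falls were crystallins and other lens genes. Of 14 tested lens markers 13 fell, and they were 13 of the 44 lower calls, leaving 31 outside the list, among them Cryab, Grifin and Lgsn, which the lens also expresses. Cryaa, alpha A crystallin, was at 125, 232, 374 and 39.6 RPKM at ZT2 and 0, 2.19 and 10.9 RPKM at ZT10, with 38.3 RPKM in ZT10 replicate 4 (-5.86 ± 1.04, adjusted p = 0.014, limma, without replicate 4). Summed RPKM of the lens markers was 607, 727, 1046 and 163 at ZT2, 1.49, 10.3 and 49.4 at ZT10 and 135 in replicate 4, and over the other 39 libraries of the series it ran from 1.59 to 2913. In aged retinas it was 44, 109, 2104 and 206 at ZT2 and 127, 14.2, 559 and 84.6 at ZT10, overlapping. With all young libraries in the fit none of the 14 lens markers passed, and without ZT10 replicate 2 the number was 4. Cryab, a small heat shock protein of lens and other tissues, was at 66.6, 139.9, 209 and 30.1 RPKM and 12.3, 14.2 and 17.6 RPKM (-2.55 ± 0.56). The part of lens RNA carried over in dissection was not tested. ZT2 replicate 4 had the lowest lens level of its group, 163 RPKM, still above the highest of ZT10 replicates 1 to 3, 49.4 RPKM. Lens level and time therefore cannot be told apart in these 7 libraries.

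Outside the lens list, the falls among called genes with at least 2 RPKM included Lgsn, the lens protein lengsin (-1.75 ± 0.30), Cd24a, a surface glycoprotein of young neurons (-0.85 ± 0.20), Lrfn2, a synaptic adhesion protein (-0.67 ± 0.08), Crabp1, a retinoic acid binding protein (-0.63 ± 0.11), and Psme2b (-0.60 ± 0.11), singled out after their values were seen. Their adjusted p ran from 0.00487 to 0.0325 (limma). Lrfn2 was at 9.9, 9.33, 8.7 and 7.84 RPKM at ZT2 and 5.61, 5.48 and 5.15 RPKM at ZT10, and Cd24a at 5.32, 9.19, 8.8 and 5.36 RPKM and 3.18, 4.12 and 3.68 RPKM. The ZT10 libraries were lower in both genes, with a wider spread at ZT2 for Cd24a.

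Set among all 6 times, ZT2 and ZT10 lay at different points of each gene's day. Young Arr3 was at 59.4 ± 2.99 RPKM (SD, n = 4) at ZT2, 122 ± 5.83 at ZT6, 131 ± 5.11 at ZT10 (n = 3), 118 ± 11.2 at ZT14, 98.1 ± 4.43 at ZT18 and 59.4 ± 8.25 at ZT22, so that its lowest times, ZT22 and ZT2, did not differ beyond their spread. Rbm3 was at 19.3 ± 2.23 RPKM at ZT6, as at ZT10 (19.3 ± 2.18), and lower at every other time. Per1 had its highest mean after ZT10, 19.6 ± 1.73 RPKM at ZT14, whereas Dbp had its highest means at ZT6 and ZT10 (33.8 ± 1.87 and 33.3 ± 1.99 RPKM). These are levels at single times, with no test.

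Genes that fell differed in when they were lowest. Nr2e3 was lower still in early darkness, at 133 ± 28.3 RPKM at ZT14 against 188 ± 8.78 at ZT10. Calr was at 118 ± 9.06 RPKM at ZT6 and 108 ± 1.47 at ZT10, and higher at ZT2 and ZT18 (184 ± 15.5 and 180.4 ± 13.9 RPKM). Irf7 had its lowest mean at ZT10 (2.8 ± 0.105 RPKM) and its highest at ZT18 (16.7 ± 1.63 RPKM). Rcvrn and Drd4 were likewise lowest in the light after ZT2, Drd4 with 80.0 ± 12.9 RPKM at ZT6, which did not differ from ZT10 (86.3 ± 4.71 RPKM) beyond its spread, and both were highest at ZT18.

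**Figure D5:**
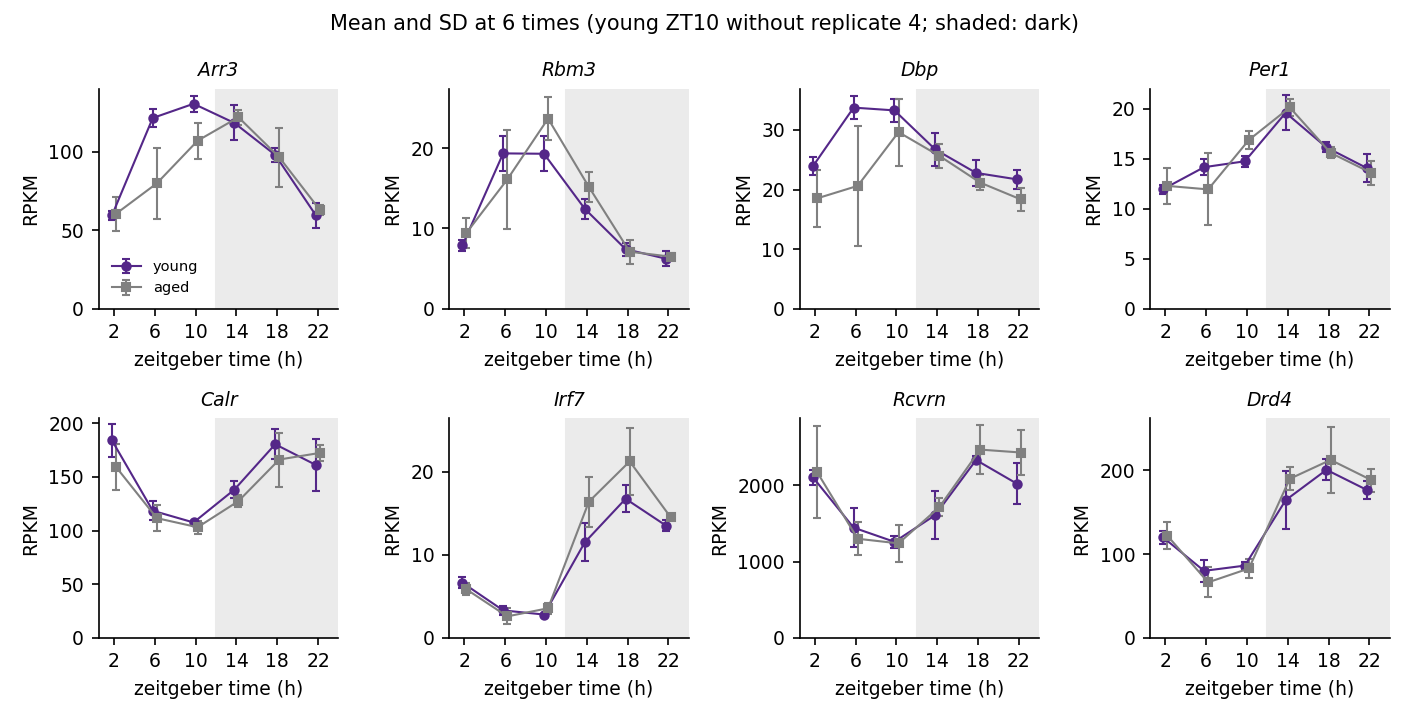
Mean RPKM with SD at the 6 zeitgeber times for 8 genes, in young (purple circles, n = 4, and 3 at ZT10 without replicate 4) and aged (grey squares, n = 4, and 3 at ZT18) retinas, with darkness shaded. Arr3, Rbm3 and Dbp are higher at ZT10 than at ZT2 at both ages, and Calr, Irf7, Rcvrn and Drd4 are lower.

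In aged retinas the same contrast gave far fewer calls, and a difference between the ages was not detected. Of the 14936 genes 9 were called (0.0603%), 7 higher and 2 lower. The 5 that were also called in young retinas were Rbm3, Kif4, Pcdh15, Ubxn11 and Tnfsf13, and the other 4, Coq8a, Mxi1, Pde8b and Zfp385b, passed in young retinas at a smaller fold in the same direction. Aged Rbm3 was at 12.2, 8.12, 8.44 and 9.01 RPKM at ZT2 and 22.3, 23, 27.6 and 21.8 RPKM at ZT10 (1.29 ± 0.13, adjusted p = 0.0295, limma), again without overlap. The count was 18 without aged ZT2 replicate 1, 0 without any other 1 of the 8 libraries, 3 after median-ratio scaling and 1 after quantile normalization.

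Most genes called in young retinas had the same sign in the aged mice. Of the 199 called higher, 186 were above 0 in aged (93.5%), beside 74.6% of all tested genes, and 94 had an unadjusted p under 0.05 (limma). Over all 14936 tested genes 2076 were higher in aged at that p. Of the 31 called lower outside the lens list, 25 were below 0 (80.6%), beside 25.4% of all tested genes, and 13 had an unadjusted p under 0.05. Over all 14936 tested genes 468 were lower in aged at that p. Aged Arr3 was at 46, 62.5, 60.8 and 72.5 RPKM at ZT2 and 108, 94.5, 122 and 104 RPKM at ZT10 (0.83 ± 0.14, adjusted p = 0.0774, limma), and aged Calr at 129, 165, 177 and 167 and 107, 96.5, 109.8 and 99.3 RPKM (-0.62 ± 0.10, adjusted p = 0.0774, limma). Neither overlapped between times, although neither passed. Aged values of the clock genes that rose in young ran from 0.43 for Tef to 0.80 for Ciart. For Irf7 the aged difference was -0.65 ± 0.13 (adjusted p = 0.0938, limma).

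The age by time interaction in the 15 libraries gave 0 genes at an adjusted p under 0.05 (0%, limma), with 766 of 14936 at an unadjusted p under 0.05 and 1 gene passing without the filter on low values. The smallest p-values among genes named by rule were those of Zfp281, a zinc finger factor (0.08 ± 0.05 in young and -0.33 ± 0.06 in aged), Cct2, a subunit of the cytosolic chaperonin (-0.13 ± 0.05 and 0.16 ± 0.05), and Drg1, a GTPase (-0.26 ± 0.06 and 0.07 ± 0.05), each with an adjusted p of 0.857. Xbp1 differed by -0.56 in young and -0.15 in aged, with an interaction of -0.41 ± 0.11 (adjusted p = 0.857, limma), and Samd7 by 0.37 and -0.01 (0.38 ± 0.11, adjusted p = 0.888, limma), both singled out after their values were seen.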

How the data were processed

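Gene-level RPKM values were deposited by the authors as 1 table; per the submitters' processing notes these come from the GRCm39 build with Subread 2.0.6, HISAT2 2.2.1 and FastQC 0.23.4 among the tools. Annotation release, filters and strand setting: not given in the sources used here. Per the series' design text, edgeR was the authors' own test. Whole reads were recovered from the RPKM steps for 37323 of 37323 genes above 0 (within 0.01 reads), with 1 annotated length or the smallest whole length. Of the columns, 47 matched a sample and 1 was not used. Replicates differed by more than counting noise (chi-square 7.68 to 37.4 per gene), so each counted as its own sample.

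For testing, a gene needed 0.5 RPKM in 3 or more of the 7 libraries. A gene low in 1 group could therefore enter through the other group alone. The test was run with limma 3.58.1 in R 4.3.3 (log2(RPKM + 0.5), trended eBayes, Benjamini-Hochberg) and a call needed an adjusted p below 0.05 with more than a 1.5-fold difference. The aged contrast and the interaction used the same genes. Scripts were tested on simulated data. P-values measure the spread between these mice. Symbols came from GENCODE M21 (51884 of 57180 matched). Named were the 14 largest called rises and falls with a gene name, at least 2 RPKM and groups apart, the clock transcription factors, up to 4 passing members per list and 3 genes by interaction p; other list members illustrate their group. Members and lists were chosen with earlier results of these data known. Alternatives changed the pseudocount, filter, scaling, libraries and model. Values of some list members are not reported here, and counts include them.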

Additional observations from a re-analysis of the deposited data

Results flagged for a closer look

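In 8 of the 97 named genes screened, 1 of the 4 young ZT2 libraries lay far from the other 3. Replicate 4 was the highest for Snhg11 (18.4 RPKM) and the lowest for Rora (18.2 RPKM). Replicate 1 was the highest for Sgk1 (98.6 RPKM), Hsp90aa1 (684.7 RPKM) and Lgsn (3.71 RPKM) and the lowest for Stip1 (78.2 RPKM), Gnat1 (3221 RPKM) and Samd7 (32.2 RPKM). Chance alone sets about 1 in 20 such groups apart in this way. In each group 7 library measures were screened too. Among the 4 young ZT10 libraries, replicate 4 stood apart with 12689 genes at 0.5 RPKM or more, 1.75% of summed RPKM in non-coding genes and a summed Müller marker level of 276 RPKM.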

How the results depend on the processing

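The 243 genes called in the young contrast became 145 without a filter on low values (110 higher), 134 with a pseudocount of 1 RPKM (104 higher), 161 with all young libraries in the fit (21 lower), 127 after quantile normalization (64 higher) and 534 by voom on recovered reads (489 higher). Median-ratio scaling gave 109 higher and 83 lower. Without a fold minimum 1741 genes passed, and 56 at a fold over 2. Among protein-coding genes alone, added after seeing the data, 134 were called (100 higher). With ZT10 replicate 4, 4 were called higher and 0 lower. Leaving out 1 library gave 101 to 395 called, 80 to 324 higher and 21 to 71 lower. For the aged contrast 3 were called after median-ratio scaling, 1 after quantile normalization and 0 to 18 with 1 library left out, and for the interaction 1 passed without the filter and 0 with any 1 library left out. With the replicate number as a block 360 young genes were called (293 higher, 67 lower) and 0 aged genes, but same-numbered libraries do not pair: their deviations correlated at -0.11, 0.09 and 0.03 in young and 0.26, 0.43, 0.62 and -0.15 in aged mice, and not every library matched its own number best.

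Some log2 differences changed sign. With ZT10 replicate 4 they were Arntl -0.0036, Clock -0.067, Cry2 -0.063, Rora -0.15, Nr1d2 -0.024, Hlf -0.34, Bhlhe40 -0.34, Gnat1 0.090, Pde6g 0.31, Gnb1 0.071, Pdc 0.0039, Nrl 0.065, Igfbp5 -0.54, Slc6a9 -0.18, Tfap2b -0.61 and Pdzd11 0.0070. With median-ratio scaling they were Arntl -0.094, Cry1 -0.024, Rora -0.019 and Zfp281 -0.014, after quantile normalization Arntl -0.054 and Pdc 0.053, and with the replicate block Arntl -0.024. With 1 library left out, Arntl ran from -0.024 to 0.056 and Npas2 from -0.14 to 0.026. The cause was not tested. Small differences in genes at low RPKM are limited by depth as well as by the number of mice.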

Other observations

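In further gene groups of the young contrast a minority of members passed, and their counts moved with single libraries. As deposited, 8.86% of all tested genes rose and 2.8% fell, with a median of 0.10. The counts over all genes moved with the same settings. The 1323 rises were 212 without ZT10 replicate 2, 2356 without ZT2 replicate 4, 2169 by voom and 758 with all young libraries. In that order of settings the 418 falls were 112, 639, 494 and 231. Of potassium channels, 6 of 57 rose and 4 fell (median 0.25), with the sodium-activated channel Kcnt1 at 1.69, 1.79, 1.49 and 2.04 RPKM at ZT2 and 3.18, 2.92 and 2.91 RPKM at ZT10 (0.64 ± 0.10, adjusted p = 0.00889, limma). The 6 rises were 24 without ZT2 replicate 4, 21 with a replicate block, 14 by voom, 3 under either other scaling, without the filter on low values or without ZT10 replicate 1 or 3 or ZT2 replicate 1 or 3, 2 without ZT10 replicate 2 and 0 with all young libraries. The 4 falls were 0 without any 1 of the ZT10 libraries or ZT2 replicate 2, 2 without ZT2 replicate 1, and 1 without ZT2 replicate 3, after quantile normalization or without the filter.

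Of SR and hnRNP splicing factors, 5 of 42 rose and 3 fell (median 0.03), with Hnrnpdl at 0.45 ± 0.05 and Hnrnpc at -0.37 ± 0.04 (adjusted p = 0.00321 and 0.00463, limma). The 5 rises were 1 without ZT10 replicate 2 or 3, 2 without ZT10 replicate 1 or ZT2 replicate 3 or after median-ratio scaling, and 3 without ZT2 replicate 1 or 2, after quantile normalization, without the filter, with all young libraries or with a replicate block. The 3 falls were 9 after median-ratio scaling, 5 without ZT2 replicate 4, and 1 without any 1 of the ZT10 libraries or ZT2 replicate 2 or 3 or without the filter. Of insulin and IGF signaling genes, 3 of 16 rose and 0 fell (median 0.14), these being Irs1, Irs2 and Igfbp5. Those 3 rises were 0 under either other scaling, without the filter, and without ZT10 replicate 2 or 3 or ZT2 replicate 2, 1 without ZT10 replicate 1 or ZT2 replicate 1 or 3, and 6 without ZT2 replicate 4 or by voom.

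Of cell cycle and replication genes, 2 of 13 rose and 0 fell (median 0.18), namely Mcm3 (0.77 ± 0.12) and Mcm5 (0.50 ± 0.12), subunits of the replicative helicase. Of genes known to respond to hypoxia, 2 of 9 rose and 0 fell (median -0.06), namely Ankrd37 and Vegfa, by 0.65 ± 0.10 and 0.33 ± 0.07 (adjusted p = 0.00973 and 0.0249, limma). In both groups the 2 rises were 1 after median-ratio scaling, without the filter, and without any 1 of the ZT10 libraries or ZT2 replicate 2 or 3. Of intraflagellar transport and BBSome genes, 0 of 25 rose and 2 fell (median -0.06), with Ift43 at -0.54 ± 0.06 (adjusted p = 0.00366, limma), and the 2 falls were 4 after median-ratio scaling and 1 without any 1 of the ZT10 libraries or with all young libraries. Genes known for retained introns, Clk1 and Ogt, differed by 0.62 ± 0.06 and 0.52 ± 0.04 (adjusted p = 0.00355 and 0.00149, limma), singled out after their values were seen, and the nuclear RNA Malat1 by 0.40 ± 0.08 (adjusted p = 0.0226, limma).

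Counts for respiratory chain and ribosome genes depended on the scaling. As deposited, of complex I subunits 2 of 37 rose and 1 fell (median -0.02), of complex III, IV and ATP synthase genes 3 of 33 rose and 2 fell (median -0.05), of cytosolic ribosomal proteins 0 of 79 rose and 1 fell (median -0.00) and of mitochondrial ribosomal proteins 0 of 78 rose and 4 fell (median 0.01). After median-ratio scaling 6, 9, 13 and 10 genes of these groups, in that order, fell, and after quantile normalization 6 cytosolic ribosomal protein genes rose. Without ZT10 replicate 2 no complex I subunit rose or fell and no ribosomal protein gene of either kind fell, and without ZT2 replicate 4 the falls were 3, 4, 4 and 4, while 3 mitochondrial ribosomal protein genes rose. Cox6c, a subunit of cytochrome oxidase, was at 35.5, 35.7, 36.9 and 38.4 RPKM at ZT2 and 50.2, 47.5 and 46.2 RPKM at ZT10 (0.38 ± 0.05, adjusted p = 0.0052, limma).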
